A study of Mus musculus with 18 samples.

Results

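The genes described here are 10 neuropeptide genes of the spinal cord: Tac1, Tac2, Sst, Npy, Pdyn, Penk, Pnoc, Gal, Grp and Cck. They are a fixed list of names out of 54446 genes in the count table, and each was followed in all 18 libraries. This list and the other gene lists below were chosen with earlier results of these data known. The shares of all genes set beside their counts are therefore descriptions and no independent test. RNA was measured in whole spinal cords taken at 10 months of age from untreated mice, with 6 genotypes of 3 mice. Controls were C57BL/6 mice without a transgene (NTg). Every mouse of the remaining 5 genotypes was heterozygous for human sequence: ATXN2 with 22 glutamines in its tract (Q22), ATXN2 with 33 glutamines (Q33), TDP-43 (TDP-43), and TDP-43 together with either ATXN2 form (the Q22 double knock-in and the Q33 double knock-in). No agent was given to any group, and the labels name no promoter or cell type to which a knock-in is restricted. Each library is a separate animal. The replicate numbers below only name the animals of a group.

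Neuropeptides are cut from larger precursor proteins, stored in dense-core vesicles and released to act on G protein-coupled receptors. In the spinal dorsal horn, where sensory fibres for pain, itch, temperature and touch end, they mark populations of excitatory and inhibitory interneurons and tune how sensory signals are passed on. ATXN2 and TDP-43 are RNA-binding proteins linked to amyotrophic lateral sclerosis, the first through moderate expansion of its glutamine tract and the second through inclusions in neurons.

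The precursors fall into families by the peptides that they hold. The sequences below are shown because members of a family did not always share a call in the Q33 double knock-in against NTg. Tac1 and Tac2 were both called lower, and of Pdyn and Penk only Pdyn was. Each line is a stretch of coding sequence from the GENCODE mouse transcripts, 5′ to 3′, with the codons of the shared peptide core in capitals.
Tac1 site 1: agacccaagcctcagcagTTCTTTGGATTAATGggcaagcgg
Tac1 site 2: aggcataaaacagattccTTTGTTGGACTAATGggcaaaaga
Tac2 site 1: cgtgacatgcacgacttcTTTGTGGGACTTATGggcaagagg
Pdyn site 1: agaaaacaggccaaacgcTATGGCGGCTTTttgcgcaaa
Penk site 1: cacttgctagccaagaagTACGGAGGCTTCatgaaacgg
Penk site 6: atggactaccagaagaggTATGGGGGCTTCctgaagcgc
Sst site 1: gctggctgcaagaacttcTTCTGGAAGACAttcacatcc
Tac1 holds 2 copies of the tachykinin core, those of substance P and neurokinin A, and Tac2 holds 1, that of neurokinin B. Pdyn holds 3 copies of the opioid core and Penk holds 7. In Penk the codon after the opioid core is one for methionine (atg) in 6 of the 7 copies and one for leucine (ctg) in site 6, and in site 1 of Pdyn it is one for leucine (ttg), which is the difference between the methionine and leucine forms of enkephalin. Sst holds 1 copy of the somatostatin core.

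All 10 genes passed the filter on low counts, with counts per library from 9 (Tac2 and Grp) to 4378 (Penk). Library totals ran from 16061359 to 30978678 counts, and 3 counts were worth 0.097 to 0.187 CPM (counts for each library divided by its TMM-scaled total). Levels of different genes are comparable only per length. Per kilobase of exon, Penk was by far the highest in NTg cords, at 71.6 ± 14.4 CPM (SD, n = 3). Sst (15.4 ± 2.58), Npy (13 ± 4.04) and Tac2 (10.7 ± 2.68) followed with overlapping spreads, then Cck (5.95 ± 0.931). Grp (2.24 ± 0.637), Pdyn (1.94 ± 0.559), Gal (1.94 ± 0.543), Tac1 (1.45 ± 0.332) and Pnoc (1.41 ± 0.202) were lowest, and neighbours among these 5 did not differ beyond their spread. In the Q33 double knock-in Penk stayed highest at 55.8 ± 10.1, and Pdyn (0.542 ± 0.110) and Tac1 (0.602 ± 0.124) had the lowest means, within each other's spread. The spreads of Grp (0.941 ± 0.742) and Pnoc (0.948 ± 0.339) overlapped with both.

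**Figure D1:**
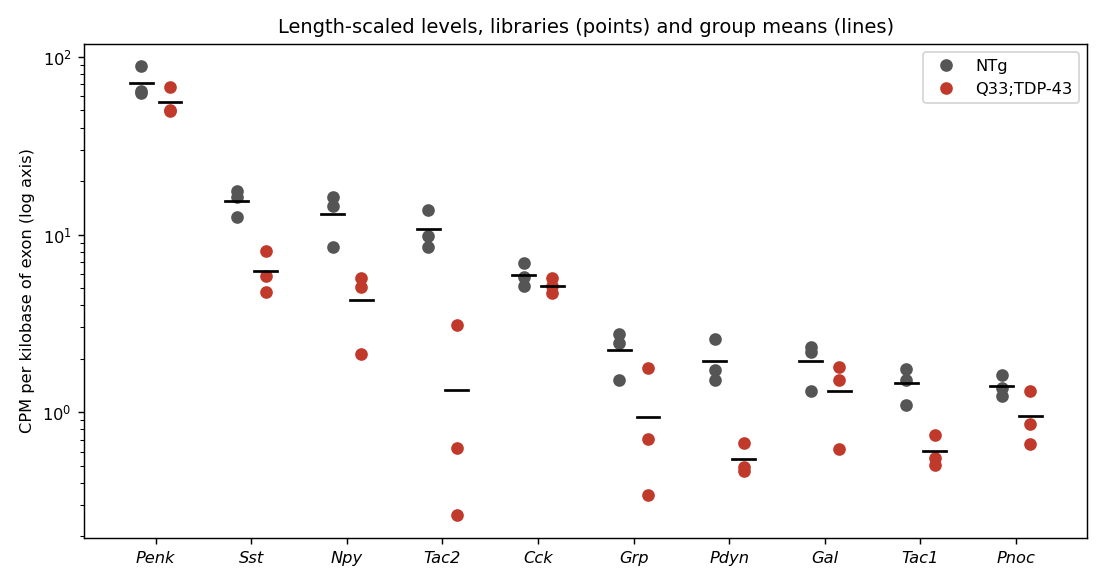
CPM per kilobase of exon on a log axis for the 10 genes, ordered by their mean in NTg cords; points are libraries (3 a group) and lines are group means. Penk lies far above the rest in both groups, and Tac2 and Pdyn show the widest gaps between NTg and the Q33 double knock-in.

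Several properties of the libraries also moved with the groups and are set beside the results below. Mitochondrial rRNA took 23.4% to 28.7% of counts in the Q33 double knock-in and 12.7% to 23.4% in the other 15 libraries. Genes of the Hox10 and Hox11 groups are active in the lower cord. Over 6 of them the mean log2 CPM was 0.55 to 3.54 in the Q33 double knock-in, and also high in replicates 2 and 3 of Q33 (2.71 and 1.95) and replicate 1 of the Q22 double knock-in (3.51). It was -2.46 to -0.20 in the remaining 12. Y-linked genes were above 10 CPM in all 3 Q22 libraries, 2 each of Q33 and TDP-43, 1 of each double knock-in and none of NTg. Markers of dorsal root ganglion neurons were near 0 throughout: 3 of 8 passed the low-count filter, and their sum was 2.07 to 2.31 CPM in NTg and 2.05 to 3.04 CPM in the Q33 double knock-in. Mouse Atxn2 (log2 fold change 0.02, edgeR adjusted p = 0.88) and Tardbp (-0.04, adjusted p = 0.73) did not pass the test in the Q33 double knock-in against NTg. These are counts on the mouse genes, and how far reads from the human sequences enter them was not tested.

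Of the 10 genes, 5 were lower in the Q33 double knock-in than in NTg: Tac1, Tac2, Sst, Npy and Pdyn. Their log2 fold changes were between -3.04 and -1.27, and in each of the 5 all 3 double knock-in libraries lay below all 3 NTg libraries. Among all 20635 genes tested, 6.39% were called lower in this comparison and 15.8% had all 3 libraries below NTg. All 10 genes had a negative log2 fold change, with a median of -1.25, against -0.01 over all genes tested. None was called higher, against 5.68% of all genes. Bulk RNA cannot tell fewer cells of a type from less RNA per cell.

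**Figure D2:**
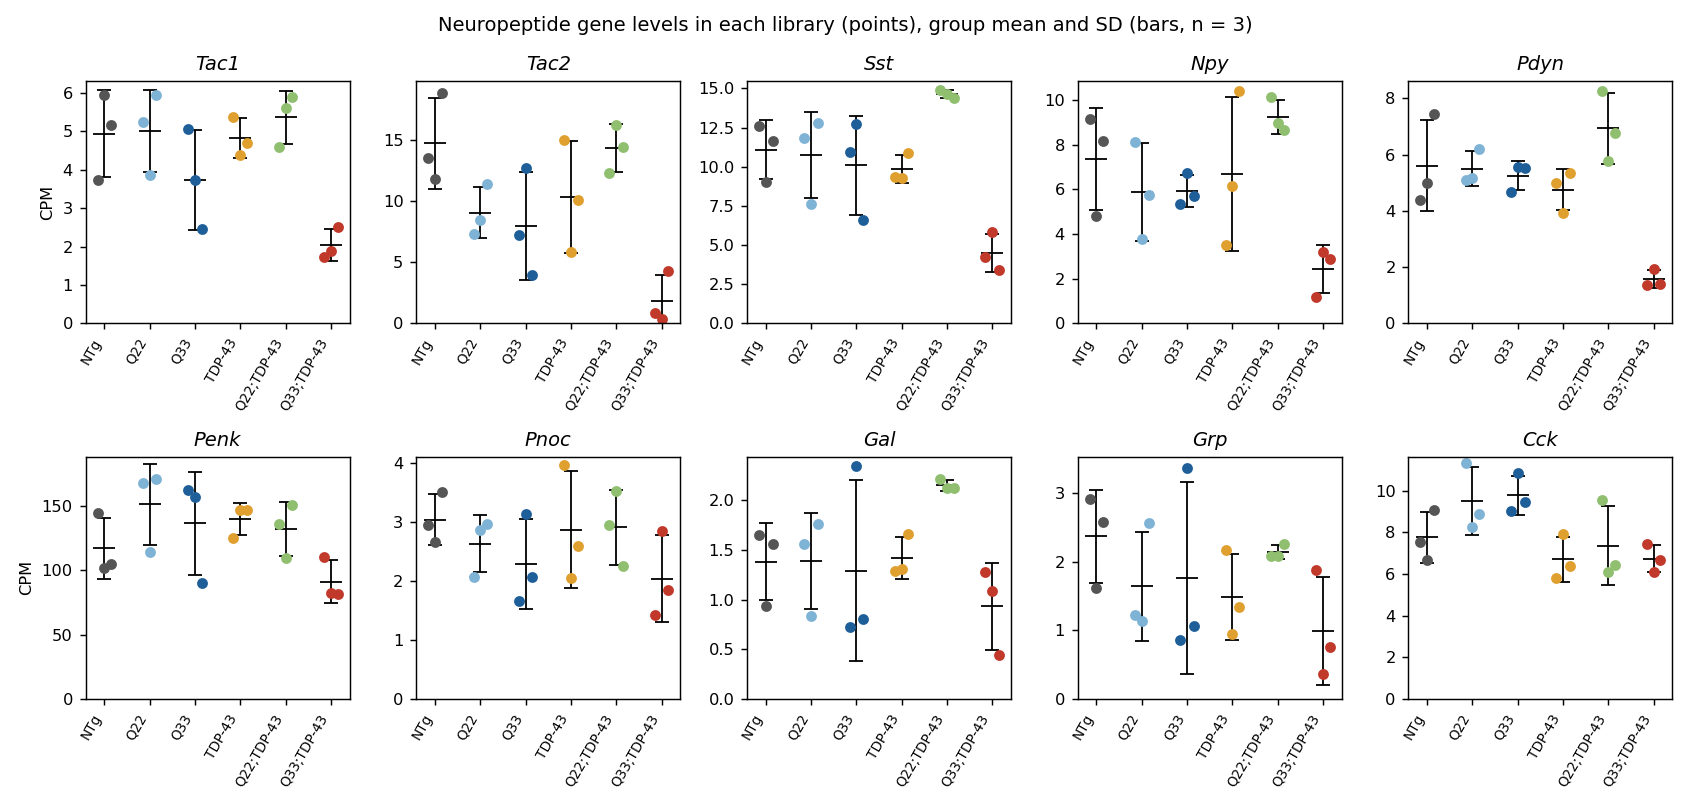
CPM of each gene in each of the 18 libraries (points) with the group mean and SD (bars, n = 3), each panel with its own axis from 0. Tac1, Tac2, Sst, Npy and Pdyn sit low in the Q33 double knock-in (labelled Q33;TDP-43), while Penk, Pnoc, Gal, Grp and Cck overlap with NTg.

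Tac2 encodes the precursor of neurokinin B and showed the largest change of the 10. It stood at 13.5, 11.8 and 18.9 CPM in the NTg libraries and at 0.863, 0.362 and 4.29 CPM in the Q33 double knock-in. Replicate 3 of the double knock-in was well above the other two but still below every NTg library. The log2 fold change was -3.04 (SE 0.559, edgeR adjusted p = 0.00325). Tac2 was also the most variable of the 5 elsewhere, from 3.94 CPM (Q33 replicate 3) to 16.2 CPM (a Q22 double knock-in), so that 1 Q33 library was below the highest Q33 double knock-in library.

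Tac1, the precursor of substance P and neurokinin A, stood at 3.72, 5.94 and 5.16 CPM in NTg and at 1.73, 1.89 and 2.52 CPM in the Q33 double knock-in. The 2 groups did not overlap, but replicate 3 of Q33, at 2.45 CPM, lay within the range of the double knock-in. The log2 fold change against NTg was -1.27 (SE 0.257, edgeR adjusted p = 0.00548). Both tachykinin genes thus fell, Tac2 with the wider interval (-4.21 to -1.86 against -1.81 to -0.73, 95%).

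Pdyn encodes prodynorphin, whose peptides act mainly on the kappa opioid receptor. It stood at 4.37, 5.0 and 7.43 CPM in NTg and at 1.35, 1.93 and 1.41 CPM in the Q33 double knock-in. No library of any other genotype was below 3.93 CPM, so the 3 libraries lay apart from all 15 others. The log2 fold change was -1.84 (SE 0.226, edgeR adjusted p = 0.000126), the smallest p of the 10 genes.

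Penk encodes proenkephalin, the source of the enkephalins that act on delta and mu opioid receptors. Its levels were 144, 102 and 105 CPM in NTg and 110, 82.0 and 81.4 CPM in the Q33 double knock-in, so replicate 1 of the double knock-in overlapped with NTg. The log2 fold change of -0.36 (SE 0.205, edgeR adjusted p = 0.264) did not pass the test, and its 95% interval ran from -0.79 to 0.07. With library totals in place of TMM it passed (-0.61, edgeR adjusted p = 0.0423), under a scaling that put the median of all genes at -0.25. It also passed with no filter on low counts (-0.34, edgeR adjusted p = 0.0242). The fit without the filter also called members in comparisons where the main fit called none, so it adds no support for Penk.

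Of the 2 genes with the opioid core, then, Pdyn passed the test and Penk did not, and the interval of Pdyn (-2.31 to -1.36) did not overlap with that of Penk. Among Q33 double knock-in cords, Pdyn per kilobase amounted to 1.0% ± 0.319 of Penk (SD, n = 3; 0.693% to 1.33%). In the other genotypes the group means were 1.94% to 2.99%, and no library was below 1.51%. This ratio was formed after the values were seen and is given as a description.

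Pnoc encodes the precursor of nociceptin, the ligand of the opioid-like receptor Oprl1. It stood at 2.95, 2.66 and 3.51 CPM in NTg and at 1.43, 2.85 and 1.86 CPM in the Q33 double knock-in. Replicate 2 of the double knock-in lay within the NTg range, and the log2 fold change of -0.57 (SE 0.303, edgeR adjusted p = 0.224) did not pass the test.

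Sst encodes somatostatin. It stood at 12.6, 9.02 and 11.7 CPM in NTg and at 4.24, 5.83 and 3.40 CPM in the Q33 double knock-in. These 3 libraries lay below all 15 others, of which the lowest was 6.58 CPM (Q33 replicate 3). The log2 fold change was -1.31 (SE 0.238, edgeR adjusted p = 0.0029).

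Npy encodes neuropeptide Y, which acts on Npy1r and Npy2r in the dorsal horn. It stood at 9.16, 4.80 and 8.14 CPM in NTg and at 1.20, 3.21 and 2.87 CPM in the Q33 double knock-in, below all 15 others by a small margin, since TDP-43 replicate 1 was at 3.51 CPM. The log2 fold change was -1.61 (SE 0.375, edgeR adjusted p = 0.0112). Leaving out the lowest Npy library, Q33 double knock-in replicate 1, raised the edgeR adjusted p to 0.073.

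Gal (galanin) and Grp (gastrin-releasing peptide, a transmitter of spinal itch circuits) had the lowest mean CPM of the 10 genes in NTg. Gal stood at 1.65, 0.938 and 1.56 CPM in NTg and at 1.28, 1.08 and 0.442 CPM in the Q33 double knock-in. Grp stood at 2.91, 1.62 and 2.58 CPM in NTg and at 1.88, 0.362 and 0.752 CPM in the double knock-in. Both overlapped between the groups. The log2 fold changes of -0.56 for Gal (SE 0.431, edgeR adjusted p = 0.423) and -1.24 for Grp (SE 0.534, edgeR adjusted p = 0.135) had 95% intervals of -1.47 to 0.35 and -2.36 to -0.12. Grp thus had a log2 fold change close to that of Tac1, with about the SE of Tac2. With no filter on low counts Grp passed (-1.22, edgeR adjusted p = 0.00522). That fit gave smaller p elsewhere too, so it adds no support for Grp. For Tac2 in Q33 against NTg its edgeR adjusted p was 0.000162, against 0.695 in the main fit.

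Cck encodes cholecystokinin, made by excitatory neurons of the deep dorsal horn among others. It stood at 7.55, 6.67 and 9.07 CPM in NTg and at 7.43, 6.11 and 6.68 CPM in the Q33 double knock-in, with overlap. Its log2 fold change was -0.21 (SE 0.185, edgeR adjusted p = 0.502), and the interval of -0.59 to 0.18 leaves out changes as large as those of the 5 lower genes.

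The comparison with the Q22 double knock-in asks what the longer tract goes with when TDP-43 is present in both groups. The same 5 genes were called lower (edgeR adjusted p from 4.12e-05 to 0.00357), against 6.17% of all genes tested. The log2 fold changes were -1.39 for Tac1, -3.00 for Tac2, -1.70 for Sst, -1.93 for Npy and -2.14 for Pdyn. With Gal (-1.18, edgeR adjusted p = 0.0704) and Grp (-1.08, edgeR adjusted p = 0.193), 7 of the 10 genes had every Q33 double knock-in library below every Q22 double knock-in library, against 14.4% of all genes. The Q22 double knock-in libraries were tightly grouped for several genes: Sst stood at 14.9, 14.6 and 14.4 CPM, Gal at 2.21, 2.12 and 2.12 CPM, and Grp at 2.09, 2.08 and 2.26 CPM. The median of the 10 log2 fold changes was -1.29, against -0.01 over all genes.

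Against TDP-43 alone, the Q33 double knock-in was again lower in Tac1 (-1.23), Tac2 (-2.50), Sst (-1.13), Npy (-1.48) and Pdyn (-1.60), with edgeR adjusted p from 0.000678 to 0.0164 and 6.66% of all genes called lower. Penk missed the threshold at -0.62 (edgeR adjusted p = 0.0557), although its 3 double knock-in libraries lay below all 3 TDP-43 libraries (125, 147 and 147 CPM). Such a gap without overlap was found for 7 of the 10 genes (the 5 called, Penk and Gal) and for 14.1% of all genes. Cck was level between the 2 groups, at a log2 fold change of 0.00 (95% interval -0.39 to 0.39). This comparison leaned on replicate 1 of the double knock-in: without it 2 of the 5 calls were left, Sst and Pdyn.

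Against Q33 alone, 2 genes were called lower, Sst (-1.16, SE 0.238, edgeR adjusted p = 0.0273) and Pdyn (-1.74, SE 0.225, edgeR adjusted p = 0.00221), where 0.678% of all genes were called lower. Tac1 (-0.87), Tac2 (-2.14) and Npy (-1.29) had edgeR adjusted p of 0.0937, 0.0661 and 0.087. Libraries did not overlap for Sst, Npy, Pdyn and Cck (4 of 10, against 11.3% of all genes). Without replicate 1 of the double knock-in, or replicate 1 or 2 of Q33, Pdyn alone was called. DESeq2 called 5 of the 10 genes, and its share of all genes is not given here. The 4 comparisons share the 3 Q33 double knock-in libraries and are not independent of each other.

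**Figure D3:**
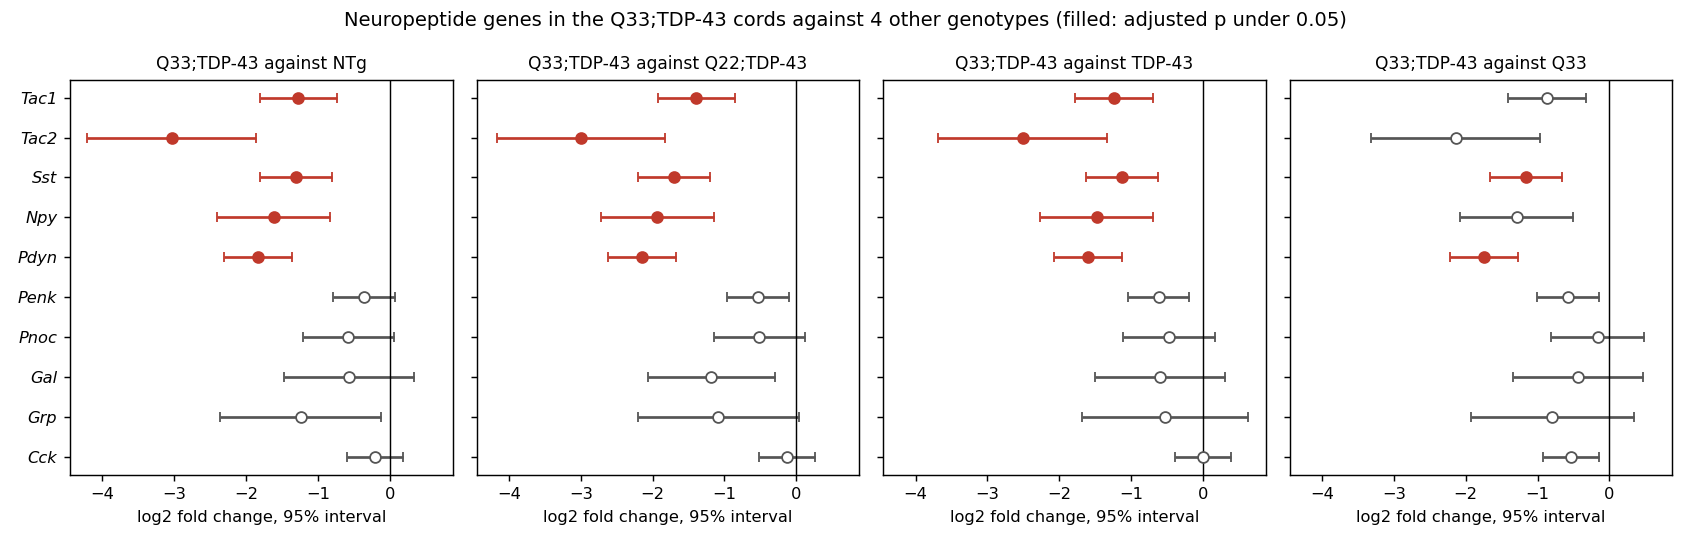
Log2 fold change (x axis) and 95% interval of the 10 genes in the Q33 double knock-in (Q33;TDP-43) against NTg, the Q22 double knock-in, TDP-43 and Q33; filled points have an edgeR adjusted p under 0.05. The same 5 genes are filled in the first 3 panels, and Sst and Pdyn in the fourth.

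In the 7 comparisons of 2 groups without the Q33 double knock-in, edgeR called none of the 10 genes, and so did DESeq2. In each of these edgeR called 0% to 0.00969% of all genes in either direction. At an unadjusted p under 0.05, none of the 10 passed in 6 of them. In the Q22 double knock-in against TDP-43, 2 did: Sst (0.57, 95% interval 0.10 to 1.05) and Pdyn (0.55, 0.12 to 0.98). Their edgeR adjusted p was 1.0. Sst, Pdyn and Gal had all 3 libraries above those of TDP-43, as did 3.19% of all genes. The Q22 double knock-in also lay above Q22 without overlap for Tac2, Sst, Npy and Gal, and above NTg for Sst and Gal. The remaining genes overlapped. The shares of all genes for these 2 comparisons, and at an unadjusted p under 0.05, are not given here. The intervals of the single knock-ins were narrow for Pdyn and wide for Tac2. Against NTg, Pdyn had a log2 fold change of -0.02 in Q22 (-0.46 to 0.41), -0.09 in Q33 (-0.52 to 0.34) and -0.24 in TDP-43 (-0.68 to 0.20). Tac2 had -0.70 in Q22 (-1.73 to 0.32), -0.89 in Q33 (-1.92 to 0.14) and -0.53 in TDP-43 (-1.55 to 0.49).

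The tract length contrast tests whether the difference between Q33 and Q22 with TDP-43 differs from that without it. For Pdyn the first difference was -2.14 and the contrast -2.08 (SE 0.304, edgeR adjusted p = 0.00699). For Sst the first was -1.70 and the contrast -1.60 (SE 0.327, edgeR adjusted p = 0.041). These were the only 2 of the 10 called, where 0.325% of all genes were called lower. Tac2 (-2.80) and Npy (-1.95) had edgeR adjusted p of 0.0995 and 0.0985. Pdyn kept its call when any single library was left out, and Sst lost it without any 1 Q22 library, replicate 1 or 2 of Q33, Q22 double knock-in replicate 2 or 3, or Q33 double knock-in replicate 1.

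The interaction of Q33 with TDP-43 tests whether the effect of Q33 depends on TDP-43, with NTg as the base. EdgeR called none of the 10 genes and 0% of all genes. DESeq2 also called none of the 10. All 10 values were negative, and 6 had an unadjusted p under 0.05: Pdyn (-1.50), Sst (-0.98), Penk (-0.84), Tac1 (-0.84), Npy (-1.16) and Tac2 (-1.61). Their edgeR adjusted p ran from 0.177 (Pdyn) to 0.369 (Tac2). The share of all genes at that unadjusted threshold is not given here, so the count of 6 is not a result about these genes in particular. Without TDP-43 replicate 2, Pdyn passed (edgeR adjusted p = 0.0405). The interaction of Q22 with TDP-43 had no gene of the 10 called by edgeR or DESeq2 and none at an unadjusted p under 0.05.

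The summed level of Tac1, Tac2, Sst, Npy and Pdyn, a sum formed after their calls were seen, was 9.38, 13.2 and 14.5 CPM in the Q33 double knock-in and 24.2 to 51.2 CPM in the other 15 libraries. The 3 libraries outside this group with high Hox10 and Hox11 levels had sums of 41.5 CPM (Q33 replicate 2), 24.2 CPM (Q33 replicate 3) and 50.2 CPM (Q22 double knock-in replicate 1). With the Hox level as a covariate, 4 of the 5 genes stayed lower than in NTg (edgeR adjusted p from 0.000543 to 0.0368), and Tac1 missed the threshold (-1.01, edgeR adjusted p = 0.058). The same covariate took the calls against TDP-43 from 5 to 2, Sst and Pdyn. The double knock-in library with Y-linked reads had a sum of 9.38 CPM and the other two 13.2 and 14.5 CPM, and with Y-linked reads as a term all 5 genes stayed called against NTg.

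Mitochondrial rRNA and genotype could hardly be told apart, since the 3 Q33 double knock-in libraries held the 3 highest shares. With that share as a covariate, a fit added after the data were seen, only Pdyn passed against NTg (-1.88, edgeR adjusted p = 0.0306). Tac1 (-1.36), Tac2 (-3.03) and Sst (-1.38) kept their size with larger errors (edgeR adjusted p = 0.191, 0.149 and 0.158), and Npy shrank to -0.88 (edgeR adjusted p = 0.468). The same fit called 28 genes in all, against 2491 without it. Q33 replicate 2, with a share of 23.4%, close to the lowest double knock-in, had a sum of 41.5 CPM.

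**Figure D4:**
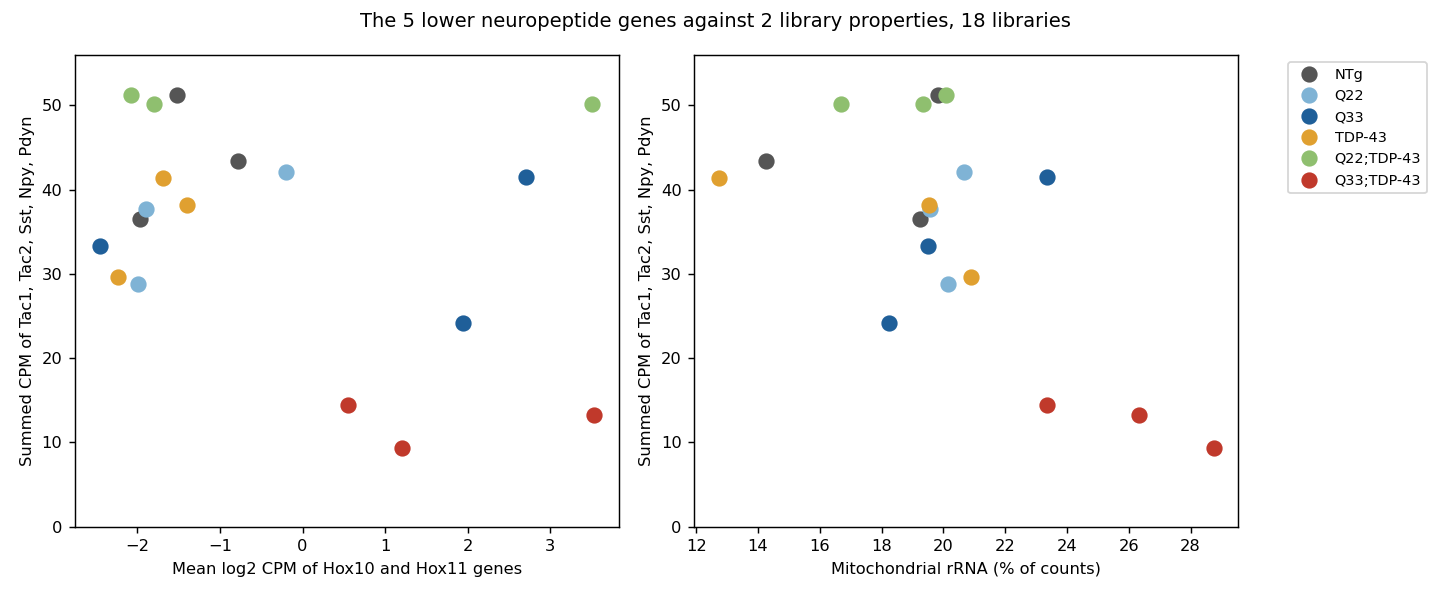
Summed CPM of Tac1, Tac2, Sst, Npy and Pdyn (y axis, from 0) against the mean log2 CPM of Hox10 and Hox11 genes (left) and the share of mitochondrial rRNA (right) in 18 libraries coloured by genotype. The Q33 double knock-in libraries (9.38 to 14.5 CPM) lie below the rest at high and moderate Hox levels, and hold the highest mitochondrial rRNA shares.

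The receptors of these peptides were followed as a list of 21 genes, of which 18 could be tested. In the Q33 double knock-in against NTg 6 were lower and 1 higher, with log2 fold changes over the list from -2.68 to 0.51 and a median of -0.51. Galr1, a galanin receptor, fell from 6.54 ± 1.82 to 1.20 ± 0.277 CPM (SD, n = 3; log2 fold change -2.45, edgeR adjusted p = 0.000337). Grpr, the receptor of gastrin-releasing peptide, fell from 3.93 ± 1.01 to 1.10 ± 0.0854 CPM (-1.83, edgeR adjusted p = 0.0023). Tacr3, the neurokinin B receptor, fell from 13.1 ± 2.30 to 5.94 ± 1.26 CPM (-1.14, edgeR adjusted p = 0.00927). Npy1r fell from 9.96 ± 2.43 to 5.33 ± 1.68 CPM (-0.90, edgeR adjusted p = 0.0257). The remaining 2 called lower were under 1 CPM in every NTg library but 1: Tacr2, a tachykinin receptor (-2.68, edgeR adjusted p = 0.0316), and Sstr4, a somatostatin receptor (-1.30, edgeR adjusted p = 0.0447). Galr1 and Grpr thus passed where their ligand genes Gal and Grp did not, while Tacr3 and Npy1r fell with Tac2 and Npy.

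Among receptors not called lower, 3 are named here after their values were seen. Tacr1, the substance P receptor, was at 13.8 ± 0.162 CPM in NTg and 17 ± 2.08 CPM in the double knock-in (0.30, edgeR adjusted p = 0.236). Oprk1, the dynorphin receptor, was at 12.5 ± 1.63 and 8.41 ± 2.21 CPM (-0.57, edgeR adjusted p = 0.146). Oprd1, an enkephalin receptor, was the 1 receptor called higher (9.54 ± 0.982 and 13.7 ± 1.18 CPM; 0.51, edgeR adjusted p = 0.0297). With library totals in place of TMM 10 of the 18 receptors were lower and none higher, under a scaling that lowered the median of all genes.

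Of 14 genes for peptide processing and dense-core vesicles, 3 were lower and 1 higher, with a median of 0.04. Pcsk1, a convertase that cuts precursors, fell from 28.9 ± 4.12 to 15.7 ± 3.88 CPM (SD, n = 3; log2 fold change -0.88, edgeR adjusted p = 0.0121). Pam, which amidates peptides, had a log2 fold change of -0.34 (edgeR adjusted p = 0.0378). The vesicle priming factors Cadps and Cadps2 went opposite ways, at 0.46 and -0.59 (edgeR adjusted p = 0.0063 and 0.0124). With library totals, which lowered the median of all genes, 5 were lower and none higher.

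Other spinal and sensory neuropeptides showed the same direction: 7 of 14 tested were lower and none higher, with a median of -0.95. Nmu (neuromedin U) fell from 4.36 ± 1.39 to 0.423 ± 0.632 CPM (SD, n = 3; log2 fold change -3.42, edgeR adjusted p = 0.00591). Nmur2, which encodes a neuromedin U receptor, fell from 3.10 ± 0.702 to 0.220 ± 0.202 CPM (-3.81, edgeR adjusted p = 0.00104). Adcyap1, which encodes PACAP, had a log2 fold change of -1.18, Vip one of -1.59 and Trh one of -1.96 (edgeR adjusted p = 0.0039, 0.0111 and 0.0187).

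Transcription factors of dorsal horn neurons were lower in 11 of 13 tested, with a median log2 fold change of -1.18. Lmx1b, a determinant of excitatory dorsal horn neurons, fell from 20.1 ± 1.47 to 3.40 ± 2.31 CPM (SD, n = 3; -2.57, edgeR adjusted p = 0.000186). Ebf2 (-3.65), Gbx1 (-2.22) and Prrxl1 (-1.81) also fell (edgeR adjusted p = 0.000103, 0.000103 and 0.000269). Of 10 other dorsal horn neuron genes 4 were lower, among them Reln (-1.27), while Calb2 rose by 1.10 (edgeR adjusted p = 0.000291 and 0.00118).

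General neuronal genes did not share this direction. Of 12 pan-neuronal genes 5 were higher, such as Snap25 (0.62, edgeR adjusted p = 0.00429), and 1 was lower, Syt1 (-0.88, edgeR adjusted p = 0.00232). Of 6 inhibitory neuron genes 3 were higher and none lower (Slc6a5, the glycine transporter of inhibitory terminals, 0.64, edgeR adjusted p = 0.0061), and of 12 motor neuron genes 2 were higher and none lower (Esrrg, 0.67, edgeR adjusted p = 0.00243). Library totals put the median of all genes at -0.25 and left 209 of 4145 calls higher, against 1173 of 2491 with TMM. Under them 2 pan-neuronal, 2 inhibitory and 2 motor neuron genes were higher, and 1, 1 and 0 lower, while 6 of the 10 neuropeptide genes and 12 of 13 dorsal horn transcription factors were lower. Among glial lists with TMM, astrocyte genes were lower in 3 of 6, microglial genes in 2 of 6 and oligodendrocyte genes in 1 of 6. With library totals these were 3, 4 and 5 of 6. The part of these shifts in the neuropeptide result was not tested. Against NTg, edgeR called none of 12 stimulus-regulated genes and DESeq2 none, and none had an edgeR unadjusted p under 0.05, while with library totals 1 was lower. Egr1, an immediate-early gene, was lower in the Q33 double knock-in than in the Q22 double knock-in (-0.90, edgeR adjusted p = 0.00149) and than in TDP-43 (-0.95, edgeR adjusted p = 0.0013).

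**Figure D5:**
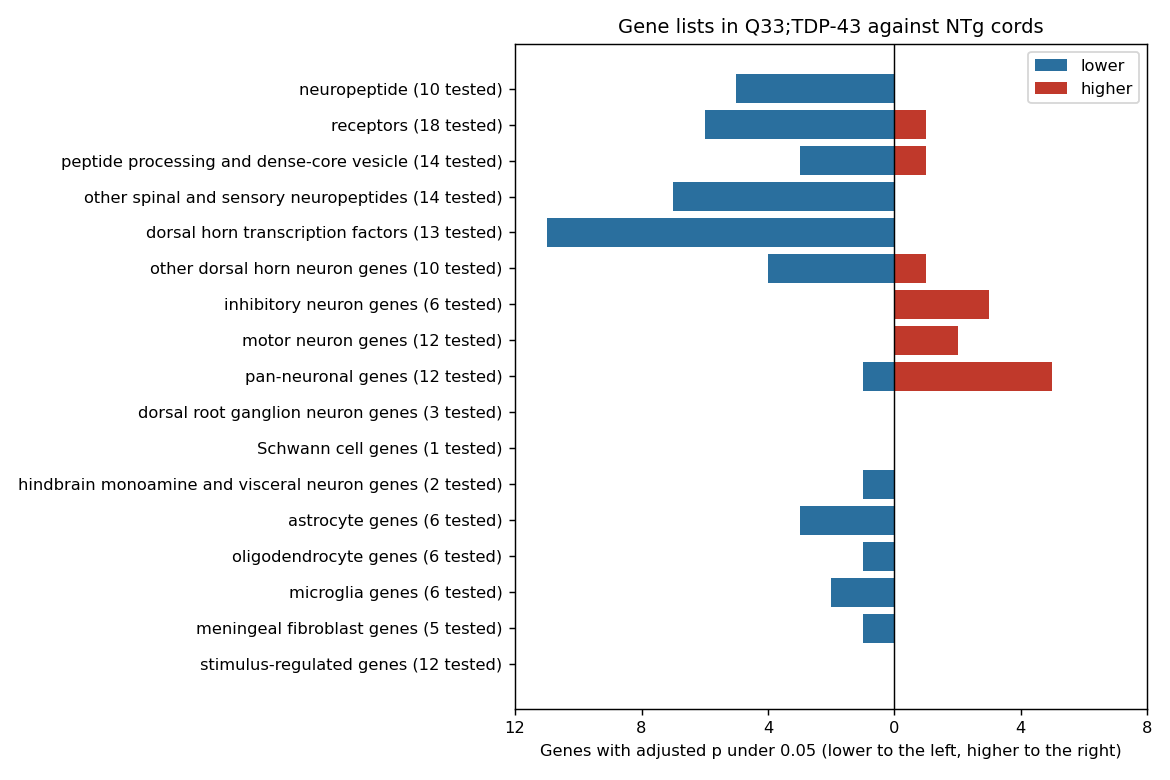
Number of genes with an edgeR adjusted p under 0.05 in the Q33 double knock-in (Q33;TDP-43) against NTg, lower to the left and higher to the right, for each list with its number of tested genes. Neuropeptide (5 of 10), other neuropeptide (7 of 14) and dorsal horn transcription factor lists (11 of 13) point left, and pan-neuronal genes (5 of 12 higher) point mostly right.

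Across the 18 libraries the log2 CPM of the 10 genes were positively correlated in 44 of 45 pairs (median Pearson r 0.51). After each group's mean was removed, 32 of 45 pairs were positive with a median of 0.21, so part of the likeness lay between groups. The pairs share libraries and depth, and these values are descriptions. Of 16276 genes searched, those most like each member over the 18 libraries were Kcnip2 (r = 0.98) and C130021I20Rik (0.97) for Tac2, Slc8a2 (0.94) and Trp53i11 (0.92) for Sst, Otof (0.93) and Cacna1g (0.92) for Pdyn, Pcdh1 (0.93) and Prrc2b (0.91) for Npy, and Dlg1 (0.90) and Tex15 (0.90) for Tac1. Penk was most like Gm43503 (0.84) and Gm42897 (0.84), Pnoc like Dnah9 (0.89) and Spag16 (0.88), Gal like Gaa (0.88) and Caly (0.85), Grp like Hs3st5 (0.91) and Gpm6a (0.88), and Cck like A130077B15Rik (0.79) and Cdk5rap1 (0.73).

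Since 5 genes moved together, the 120 bases before the RefSeq transcription start were searched for 8 short motifs on both strands, chosen after a first look at these windows. RefSeq (GRCm38.p6) gave 8 such windows for 7 of the genes, with no entry used for Penk, Pnoc or Grp. The cyclic AMP response element TGACGTCA was found in Sst alone, and its first 5 letters TGACG, which overlap the full element, in Sst, Tac1 and Cck. They are shown because 2 of these genes fell and the third, Cck, did not pass the test. The capitals mark the match, in Tac1 and Cck as the reverse complement.
Sst: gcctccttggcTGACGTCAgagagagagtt
Tac1: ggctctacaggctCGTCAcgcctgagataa
Cck: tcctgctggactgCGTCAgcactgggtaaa
The stretches lie at chr16:23890874-23890903 (minus strand), chr6:7555005-7555034 (plus strand) and chr9:121495725-121495754 (minus strand). Those of Sst and Tac1 lie inside the gene span of the annotation used for counting (chr16:23889573-23890958 and chr6:7554879-7565834), whose starts are farther upstream, so they may be transcribed. That of Cck lies outside its gene span. Of 32851 windows of this length, 1.24% held the full element and 11.7% the short one. Pdyn, Npy, Tac2 and Gal held neither, so the 5 lower genes shared no match to it in these windows. The other motifs were TTAATTA (in Tac1; 1.2% of windows), GGGCGG (Tac1 and Npy; 26.5%), CCAAT (Pdyn; 21.3%), CANNTG (Tac1, Cck and Tac2; 40.2%), TATAAA (none of the members; 6.34%) and TGANTCA (none; 3.41%). No motif was in all 5 lower genes.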

How the data were processed

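Whole spinal cord RNA of 18 mice was sequenced as stranded, ribosomal RNA-depleted libraries, per the labels' protocols. The deposited values are whole-number counts per gene made with featureCounts 1.6.1 on exons of GENCODE vM19 (mm10, GRCm38.p6) from TopHat alignments, per the file headers. Trim Galore 0.4.1, TopHat2, featureCounts and DESeq2 are named in the submitters' processing notes. The mode counts each read pair once by strand and leaves out pairs matching several genes. Exon lengths are those deposited with the counts.

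Symbols were matched for 54409 of 54446 identifiers (99.93%). Columns were tied to samples by animal number. Counts were compared with the quasi-likelihood test of edgeR 4.0.16 (in R 4.3.3, with limma 3.58.1), two-sided, with TMM scaling (factors 0.861 to 1.109) and edgeR's low-count filter (20635 genes), all 18 libraries in 1 fit with a term for each genotype. P-values were adjusted by Benjamini-Hochberg within each of 11 comparisons and 3 contrasts at a threshold of 0.05. SEs and 95% intervals come from that test. Log2 CPM used a prior count of 2. Floors of 3 counts cover counting error only. Alternatives were DESeq2 1.42.0, library totals, no filter, the compared groups only, covariates and leaving out each library.

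On data simulated for the Q33 double knock-in against NTg, over 20235 genes, the test found 47.5% of 80 genes altered 1.5-fold, 73.8% of 80 altered 2-fold and all 40 altered 4-fold. It made 3 false calls.

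Named were the 10 genes, Atxn2 and Tardbp, up to 4 called genes with the smallest adjusted p of each other list, receptors by count and range, and for each member the 2 most correlated genes whose mean reached 1 CPM. The members and lists were chosen with earlier results of these data known. The sources used here give no sex, cord level or lane for the animals. Some items that this rule or the sequence search takes are not reported here.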

Additional observations from a re-analysis of the deposited data

Results flagged for a closer look

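The difference between the Q33 and Q22 groups was not the same with and without TDP-43 for 2 of the 10 genes, by the edgeR test of that contrast. For Sst the contrast was -1.60 in log2 units (SE 0.327, edgeR adjusted p = 0.041), with a difference of -1.70 between the double knock-ins. For Pdyn it was -2.08 (SE 0.304, edgeR adjusted p = 0.00699), with -2.14 between the double knock-ins. Neither gene was called with the mitochondrial rRNA share as a covariate. Over 19 alternative fits of this contrast, Sst lost its call in 11 and Pdyn in 1. The interaction of Q33 with TDP-43 called neither gene. The 1 fit in which Pdyn lost its call was that with the mitochondrial rRNA share. Hox level and mitochondrial rRNA share also moved with the Q33 double knock-in. Both were fitted as covariates, but for that reason these fits cannot separate their part in the contrast from genotype.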

How the results depend on the processing

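Over 46 pairs of gene and comparison and 649 alternative fits, 569 kept direction and side of the threshold, 42 lost the call, 37 gained one and 1 turned: Cck in the Q33 against the Q22 double knock-in, which was -0.25 to 0.11 when 1 library was left out and positive only without replicate 1 of the Q22 double knock-in. With no filter the number of the 10 genes called rose to 7 (from 5) against NTg, with Penk and Grp added, 8 (from 5) against the Q22 double knock-in, 6 (from 2) against Q33, 5 (from 0) in the interaction of Q33, 4 (from 2) in the tract length contrast, and 1 (from 0) in Q22 against NTg, Q33 against NTg, the Q22 double knock-in against Q22 and the interaction of Q22. With the mitochondrial rRNA covariate, added after the data were seen, it fell to 1 against NTg, 2 against the Q22 double knock-in, and 0 against TDP-43, against Q33 and in the tract length contrast. With the compared groups only it was 3 against TDP-43 and 1 against Q33. The Hox covariate gave 2 against TDP-43, Y-linked reads gave 1 in the tract length contrast, and DESeq2 gave 5 against Q33. Leaving out 1 library gave 4 to 5 calls against NTg, 5 to 5 against the Q22 double knock-in, 2 to 5 against TDP-43, 1 to 2 against Q33, 0 to 1 in the interaction of Q33 and 1 to 2 in the tract length contrast. The tract contrast had 1 call, Pdyn, without any 1 Q22 library, Q33 replicate 1 or 2, Q22 double knock-in replicate 2 or 3, or Q33 double knock-in replicate 1; the interaction had 1, without TDP-43 replicate 2. For count changes from covariates and filters the cause was not tested. For most of these fits the share of all genes called is not given here. The changed counts are therefore not a result about the 10 genes in particular. No paired analysis was possible because the labels carry animal numbers and no replicate numbers shared between groups. Groups of 3 limit what can be detected, as do low counts in Gal (down to 10), Grp and Tac2 (both down to 9).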
